A study of Mus musculus with 2 samples.

Results

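The collagen genes of the mouse were followed in a map of open chromatin from NMuMG cells, an epithelial line of normal mouse mammary gland. They were taken as every protein-coding gene of GENCODE release M1 (mouse assembly mm9) whose symbol reads Col, a number, a and a number, which gave 43 of 22350 protein-coding genes. The rule used names only and no measured value. It left out Col26a1, which this release lists under another symbol, Emid2.

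Cells were kept for 6 h without serum and insulin and then received TGFβ1 at 5 ng/ml, or its carrier, for 2 h. Both groups therefore shared the starvation. The carrier is hydrochloric acid with albumin in the treatment protocol and Tris-HCl with albumin in the sample's own label. Nuclei were cut with DNaseI, and the short fragments that this enzyme releases from open chromatin were sequenced and called as peaks, with 1 deposited peak list for vehicle (17784 peaks) and 1 for TGFβ 2 h (22600 peaks). The spread between cultures is therefore unknown, no test between the conditions was made, and every interval below covers the counting of genes or peaks only. The peak files do not give read depth. The reporting summary of the study lists a higher number of mapped reads for vehicle than for TGFβ 2 h, and its part in the peak numbers was not tested.

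Collagens are the main structural proteins of the extracellular matrix, built from chains that wind into a triple helix. Fibrillar collagens form the ropes of connective tissue, collagen IV forms the sheet of the basement membrane under every epithelium, collagen VI forms beaded filaments, collagen VII anchors the basement membrane to the tissue below, and the FACIT collagens sit on the surface of fibrils. TGFβ is a well-known inducer of matrix synthesis, and cells that turn from an epithelial to a mesenchymal state change the collagens they make. It signals through SMAD proteins, and it also activates kinases that act on AP-1, a factor made of JUN and FOS proteins.

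A peak was assigned to a collagen gene when it overlapped the gene body or lay within 20 kb of it. It is called shared when it overlapped a peak of the other list by at least 1 bp, and vehicle-only or TGFβ 2 h-only when it did not, which says where a peak was called and not that the other condition had no signal. A peak within 1000 bp of an annotated transcript start is a promoter peak, and any other peak is distal. Intron numbers refer to the longest coding transcript, and positions are those of mm9.

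The sequences below are the DNA under 7 of the distal peaks called only after TGFβ. They are shown because each holds the AP-1 consensus, TGAGTCA or its reverse complement TGACTCA, in the 200 bp around the peak midpoint. One peak is given for each of the 7 named genes with such a peak, the highest-scoring where a gene had several, on the plus strand of the chromosome and with the consensus in capitals.
Col27a1, intron 1 (chr4:62878565-62878764, plus strand): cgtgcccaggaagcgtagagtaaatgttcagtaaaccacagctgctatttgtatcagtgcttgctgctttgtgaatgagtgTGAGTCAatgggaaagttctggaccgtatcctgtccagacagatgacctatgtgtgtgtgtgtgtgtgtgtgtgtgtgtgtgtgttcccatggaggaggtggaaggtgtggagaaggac
Col4a2, intron 4 (chr8:11372244-11372443, plus strand): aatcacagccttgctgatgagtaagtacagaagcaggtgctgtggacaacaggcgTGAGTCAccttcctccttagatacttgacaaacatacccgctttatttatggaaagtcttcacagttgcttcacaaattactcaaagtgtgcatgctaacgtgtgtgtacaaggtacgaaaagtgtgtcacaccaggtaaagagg
Col6a1, upstream (chr10:76193319-76193518, plus strand): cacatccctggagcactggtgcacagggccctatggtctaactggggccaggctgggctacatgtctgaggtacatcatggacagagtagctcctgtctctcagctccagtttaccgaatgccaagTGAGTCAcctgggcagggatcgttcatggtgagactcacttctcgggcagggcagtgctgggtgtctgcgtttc
Col6a3, intron 1 (chr1:92731425-92731624, plus strand): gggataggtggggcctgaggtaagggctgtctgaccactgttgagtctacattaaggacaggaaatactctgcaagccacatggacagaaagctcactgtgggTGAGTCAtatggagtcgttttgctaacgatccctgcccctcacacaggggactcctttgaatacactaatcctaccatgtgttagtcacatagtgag
Col7a1, intron 99 (chr9:108880117-108880316, plus strand): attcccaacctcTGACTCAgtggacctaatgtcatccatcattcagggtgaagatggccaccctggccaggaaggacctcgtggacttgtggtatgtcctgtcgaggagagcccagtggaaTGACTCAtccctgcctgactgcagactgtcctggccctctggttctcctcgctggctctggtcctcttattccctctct
Col12a1, intron 16 (chr9:79528751-79528950, plus strand): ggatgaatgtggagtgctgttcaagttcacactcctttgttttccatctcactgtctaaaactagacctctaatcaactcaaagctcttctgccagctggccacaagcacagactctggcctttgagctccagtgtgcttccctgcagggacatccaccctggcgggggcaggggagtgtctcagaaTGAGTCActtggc
Col15a1, intron 14 (chr4:47291397-47291596, plus strand): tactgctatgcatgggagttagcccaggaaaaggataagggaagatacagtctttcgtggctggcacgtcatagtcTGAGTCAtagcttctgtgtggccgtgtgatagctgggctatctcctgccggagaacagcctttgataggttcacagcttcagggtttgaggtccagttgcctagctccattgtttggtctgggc
The site began 18 bp before the midpoint of the peak in Col27a1, 4 bp after it in Col6a3 and 88 bp after it in Col12a1. The Col7a1 peak held 2 sites, and 45 bp of its printed stretch are coding exon.

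Collagen genes were long and rarely had a peak at their own start. Their median length was 114.4 kb, from 7.105 kb for Col10a1 to 419 kb for Col25a1, against 15.43 kb over all protein-coding genes. A peak of either list lay in the window of 29 of the 43 genes (67.4%, Wilson 95% interval 52.5 to 79.5), against 69% of all protein-coding genes. A peak within 1000 bp of one of its own starts was found for 7 collagen genes in vehicle (16.3%, 8.12 to 29.97), against 45.7% of all genes. After TGFβ there were 8 such genes (18.6%, 9.74 to 32.6), against 46.3% of all genes. Both collagen intervals lay below the share over all genes, as the plot of gene shares shows.

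**Figure D1:**
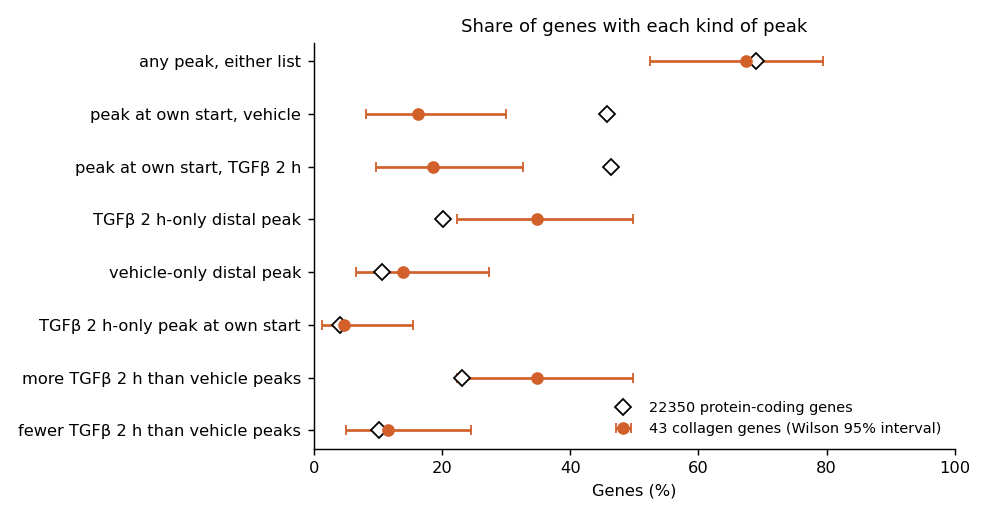
Share of genes (x axis, %) with each kind of peak (y axis). Filled circles are the 43 collagen genes with Wilson 95% intervals and open diamonds all 22350 protein-coding genes. Collagen genes lie below all genes for peaks at their own starts in both lists (16.3% and 18.6% against 45.7% and 46.3%). They lie above them for TGFβ 2 h-only distal peaks (34.9%, or 15 genes, against 20.1%). There a TGFβ list cut by score to the length of the vehicle list gave 8 genes (18.6%), against 11.8% of all genes.

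The windows held 57 vehicle peaks and 83 TGFβ 2 h peaks, a ratio of 1.46 (exact binomial 95% interval 1.03 to 2.08), against 1.22 over the windows of all protein-coding genes. Of the vehicle peaks, 51 were shared and 6 were vehicle-only (10.5%, 4.91 to 21.1). Of the TGFβ 2 h peaks, 52 were shared and 31 were TGFβ 2 h-only (37.3%, 27.7 to 48.1). Over the windows of all protein-coding genes 16.0% of vehicle and 29.5% of TGFβ 2 h peaks had no partner, both values inside the collagen intervals. The 31 and 6 stood in a ratio of 5.17 (2.12 to 15.1), against 2.26 (2.15 to 2.37) over all protein-coding windows, so the interval for the collagens still held the value for all genes. When the TGFβ list was cut by score to the length of the vehicle list, the collagen windows held 12 TGFβ 2 h-only and 11 vehicle-only peaks, a ratio of 1.09 (0.441 to 2.73), and the ratio over all genes was 0.879. The lowest score kept in the shortened list was 655. Other choices of window changed the collagen ratio by more than 1.5 times, though not beyond its interval of 2.12 to 15.1. It was 13 in gene bodies alone (26 against 2 peaks) and 3 within 50 kb (48 against 16). For peaks whose nearest coding start was that of a collagen gene it was 14 (28 against 2).

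Most peaks called in 1 list only were distal. There were 33 distal vehicle peaks and 56 distal TGFβ 2 h peaks, of which 6 (18.2%, 8.61 to 34.4) and 28 (50%, 37.3 to 62.7) were called in that list only. Over all protein-coding windows these shares of distal peaks were 32.0% and 54.3%, again inside the collagen intervals. At promoters none of the 24 vehicle peaks and 3 of the 27 TGFβ 2 h peaks were called in 1 list only, against 7.14% and 9.83% over all protein-coding windows. Most promoter peaks in these windows belonged to neighbours: 18 of the vehicle and 17 of the TGFβ 2 h promoter peaks lay only at starts of other genes. A TGFβ 2 h-only distal peak was found at 15 collagen genes (34.9%, 22.4 to 49.8), against 20.1% of all protein-coding genes. A vehicle-only distal peak was found at 6 (14.0%, 6.56 to 27.3), against 10.6%. With the shortened TGFβ list the collagen genes numbered 8 (18.6%) and 10 (23.3%), against 11.8% and 13.5% of all protein-coding genes, so the order turned in both. With windows of 50 kb they numbered 23 (53.5%) and 14 (32.6%), against 33.4% and 18.8%.

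The length of the genes moved with these shares. Among genes of 120 kb or more, 7 of 19 collagen genes had a TGFβ 2 h-only distal peak (36.8%), against 44.8% of all genes of that length. Between 60 and 120 kb the shares were 5 of 8 (62.5%) and 32.0%, between 30 and 60 kb they were 2 of 7 (28.6%) and 24.2%, and below 30 kb they were 1 of 9 (11.1%) and 14.4%. Collagen genes were thus above all genes in the middle bands and below them in the shortest and longest. Per length of window, TGFβ 2 h-only distal peaks numbered 4.18 per Mb at the collagens and 3.29 per Mb over all genes. Without Col27a1, whose window held 7 of these 28 peaks, the collagen value was 3.21 per Mb, below that of all genes. For peaks at a gene's own start the order was the same in every band: after TGFβ the collagen and overall shares were 33.3% and 39.6% below 30 kb, 0% and 62.1% from 30 to 60 kb, 37.5% and 63.3% from 60 to 120 kb, and 10.5% and 52.6% above. Each band holds few collagen genes, from 7 to 19.

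More TGFβ 2 h than vehicle peaks lay at 15 collagen genes (34.9%, 22.4 to 49.8), against 23.1% of all genes. Fewer lay at 5 (11.6%, 5.07 to 24.5), against 10.2%. Numbers were equal and above 0 at 9 genes. Both background shares lay inside the collagen intervals. The 5 genes with fewer peaks were Col4a4, Col6a5, Col11a2, Col16a1 and Col18a1, each by 1 peak.

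**Figure D2:**
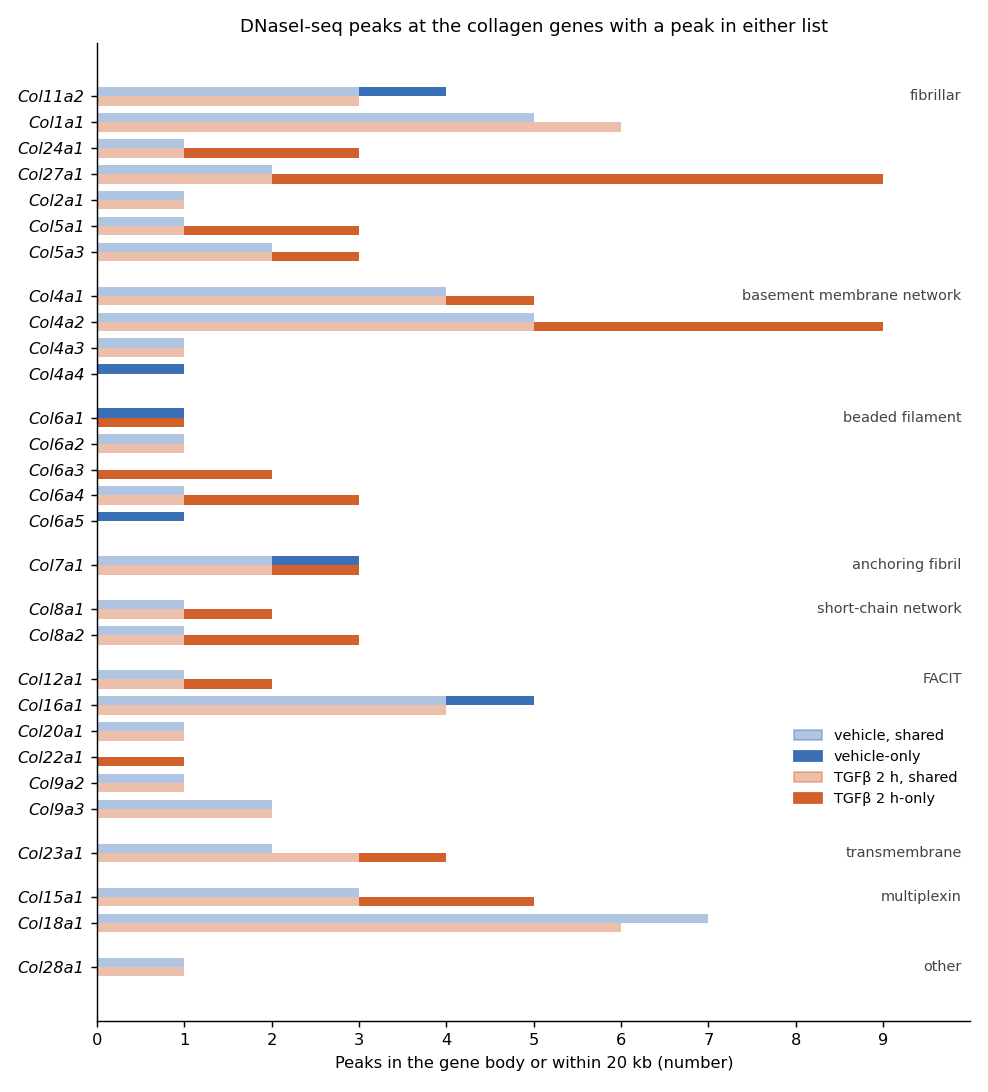
Number of peaks (x axis) in the window of each of the 29 collagen genes with a peak (y axis, grouped by collagen class), vehicle above and TGFβ 2 h below, with pale bars for shared peaks and dark bars for peaks of 1 list only. Col27a1 (2 and 9 peaks) and Col4a2 (5 and 9 peaks) have the longest dark bars.

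Among the 11 fibrillar collagens, windows of 7 genes held 16 vehicle and 28 TGFβ 2 h peaks, with 1 vehicle-only and 12 TGFβ 2 h-only peaks. Col27a1, a fibrillar chain of cartilage, had 7 of these 12. It had 2 vehicle and 9 TGFβ 2 h peaks, and a surplus of 7 or more was reached by 8 of the 22350 protein-coding genes (0.0358%). That count takes no account of gene length (121 kb for Col27a1, against a median of 15.43 kb) or peak width. The TGFβ 2 h-only peaks of Col27a1 in intron 36 were 112 and 193 bp wide. In another setting, peaks narrower than 150 bp were dropped and those less than 1000 bp apart joined. The collagen windows then held 27 TGFβ 2 h-only and 6 vehicle-only peaks, a ratio of 4.5. Without Col27a1, and with peaks kept as called, the collagen windows held 24 TGFβ 2 h-only peaks against 6 vehicle-only ones, a ratio of 4.

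Of the 9 TGFβ 2 h peaks of Col27a1, 8 lay inside the gene and 1 downstream of it. The shared pair nearest its start lay 2.3 kb inside the gene, within 1000 bp of another annotated start, and scored 618 in vehicle and 687 after TGFβ. A further shared pair in intron 41 scored 683 in vehicle and 1000 after TGFβ. The score is a whole number from 540 to a ceiling of 1000 that ranks peaks within their own list, and whether it can be compared between the lists is not stated. The TGFβ 2 h-only peak at chr4:62878361-62878967 in intron 1 scored 791, above 37.6% of its list, and lay 752 bp from the nearest vehicle peak. The others lay in intron 7 (chr4:62909935-62910362, score 717), intron 27 (chr4:62957876-62958497, 647), intron 36 (chr4:62968324-62968435 and chr4:62968525-62968717, 554 and 562), intron 50 (chr4:62984326-62984817, 651) and downstream of the gene (chr4:63009863-63010147, 680). The downstream peak had the start of Orm1 nearest to it. Those in introns 1, 27 and 50 held an AP-1 site in their central 200 bp.

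Col1a1, the main chain of collagen I, had 5 vehicle and 6 TGFβ 2 h peaks, all shared. It has 1 peak more after TGFβ because the vehicle peak in intron 1 (chr11:94798174-94798858, score 1000) overlapped 2 TGFβ 2 h peaks, chr11:94798141-94798607 (1000) and chr11:94798687-94798858 (618). Upstream of Col1a1 3 pairs lay 19.6, 8.3 and 7.2 kb before its start, with scores of 864, 1000 and 689 in vehicle and 1000 each after TGFβ. Col1a2, the partner chain of Col1a1 in collagen I, had no peak in either list, and neither had Col3a1 or Col5a2. Col11a1 was also without a peak.

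Col5a1, a collagen that governs fibril diameter, had 1 vehicle and 3 TGFβ 2 h peaks, and the TGFβ 2 h-only ones lay in intron 1 (chr2:27771966-27772507, score 625) and intron 22 (chr2:27829308-27829592, 598). Its shared pair in intron 4 scored 835 in vehicle and 608 after TGFβ, the reverse of the order at Col27a1. Col24a1, another fibrillar chain, likewise had 1 and 3 peaks, with TGFβ 2 h-only peaks in intron 2 (chr3:144970014-144970456, 648) and intron 37 (chr3:145133864-145134446, 787). Col5a3 had 2 and 3 peaks. Col11a2, a cartilage collagen, had 4 vehicle and 3 TGFβ 2 h peaks, but its shared ones all lay at the starts of neighbouring genes such as Ring1 and Rxrb, and its vehicle-only peak lay downstream (chr17:34214372-34214882, 671). The 1 pair in the Col2a1 window lay at the start of Tmem106c.

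Among the 6 chains of collagen IV, the windows held 9 vehicle and 13 TGFβ 2 h peaks. Col4a1 and Col4a2 code for the most widespread chains of the basement membrane and are transcribed away from each other, with annotated first exons that overlap by 22 bp. One peak covered both starts in each list, at chr8:11312249-11313244 in vehicle and chr8:11312267-11313249 after TGFβ. Its score was 876 in vehicle, above 37.9% of that list, and 592 after TGFβ, above 10.3% of that list. Distal pairs of the same locus mostly ran the other way. In intron 3 of Col4a2 the scores were 617 in vehicle and 922 after TGFβ at 10.3 kb from its start, 739 and 1000 at 27.7 kb, and 615 and 891 at 33.7 kb. In intron 4 they were 961 and 1000. In Col4a1 a pair in intron 1 scored 708 and 942, and one in intron 2 scored 956 and 756, the only distal pair of this locus with the lower score after TGFβ.

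Col4a2, 136.5 kb long, had 5 vehicle and 9 TGFβ 2 h peaks. A surplus of 4 or more was reached by 181 of the 22350 genes (0.810%), counted whatever their length. The 4 TGFβ 2 h-only peaks of Col4a2 lay between 59 and 88 kb from its start, in intron 4 (chr8:11371899-11372041 and chr8:11372118-11372568, 690 each, and chr8:11393195-11393580, 542) and intron 6 (chr8:11400311-11400775, 613). Col4a1 had 4 vehicle and 5 TGFβ 2 h peaks, of which 1 was TGFβ 2 h-only, in intron 49 near its far end (chr8:11203226-11203659, 554). In the map of peak positions the shared peaks of Col4a2 run from its start to intron 4, and the TGFβ 2 h-only ones from intron 4 to intron 6. The peak over the common start and the pair in intron 3 at 10.3 kb lay in the windows of both genes. The other collagen IV chains had few peaks: Col4a3 had 1 shared pair, at the start of its neighbour Mff, Col4a4 had 1 vehicle-only peak beyond its end, and Col4a5 and Col4a6 had none.

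**Figure D3:**
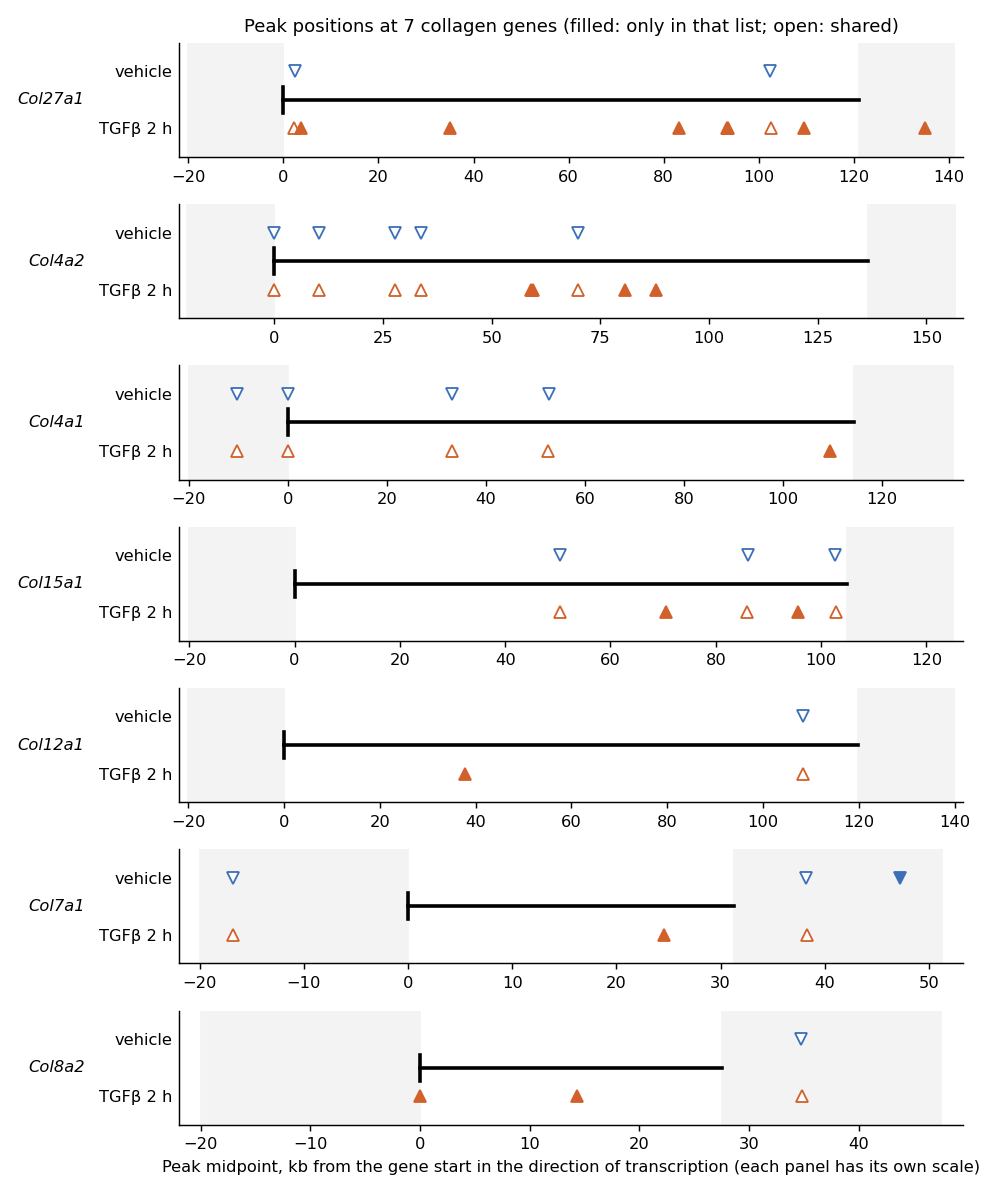
Position of peak midpoints along 7 collagen genes, in kb from the gene start in the direction of transcription (x axis, own scale in each panel), with vehicle peaks above and TGFβ 2 h peaks below the gene (black line, start at the vertical bar, grey for the 20 kb on either side). Filled triangles are peaks of 1 list only and open ones are shared. Symbols of close peaks overlap, as for the pair 93.3 and 93.6 kb into Col27a1. Filled symbols in the TGFβ 2 h rows lie inside the genes except 1 beyond the end of Col27a1, and the 1 filled vehicle symbol lies beyond the end of Col7a1.

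The 6 genes of collagen VI had 4 vehicle and 7 TGFβ 2 h peaks. Col6a1 and Col6a2 code for chains of the same beaded filament and lie close together on chromosome 10. Col6a2 had 1 shared pair at its start, with a score of 1000 in both lists. Col6a1 had 1 peak in each list, upstream of its start but at different places, a vehicle-only one at −9.02 kb (chr10:76197762-76198095, score 656) and a TGFβ 2 h-only one at −4.50 kb (chr10:76193182-76193655, 711). The edges of the 2 peaks lay 4.11 kb apart, and the TGFβ 2 h-only one held an AP-1 site.

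Col6a3, which codes for the long chain of this filament, had no vehicle peak and 2 TGFβ 2 h peaks. They lay in intron 1 (chr1:92731308-92731740, 709) and intron 41 (chr1:92667660-92667989, 560), 73.8 and 136.5 kb from the nearest vehicle peak, and both held an AP-1 site. Col6a4 had 1 and 3 peaks, with 2 close TGFβ 2 h-only peaks beyond its end (chr9:105890056-105890455 and chr9:105890546-105890618) that both scored 542, near the floor of the list. Col6a5 had 1 vehicle-only peak and Col6a6 had none.

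Col7a1 codes for the anchoring fibril that ties the basement membrane of skin and other epithelia to the stroma. It had 3 peaks in each list, of which the shared pairs lay at the starts of its neighbours Uqcrc1 and Pfkfb4. Inside the gene there was no vehicle peak and 1 TGFβ 2 h peak, in intron 99 of 118 (chr9:108879809-108880624). It was 816 bp wide, scored 792 and held 2 AP-1 sites. The vehicle-only peak of this window (chr9:108902677-108903049, 719) lay beyond the gene, with the start of Pfkfb4 nearest to it.

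Of the 3 short-chain collagens, Col8a2, a component of the membrane under the corneal endothelium, had 1 vehicle and 3 TGFβ 2 h peaks. Both TGFβ 2 h-only peaks lay at its own starts, the only collagen gene besides Col15a1 with such a peak. That made 2 of 43 genes (4.65%, 1.28 to 15.5), against 4.11% of all protein-coding genes, a share near the background. The peak at the gene start, chr4:125963857-125964258, scored 634, above 17.9% of its list, and had a GC content of 80% in its central 200 bp. The other, chr4:125978177-125978546, scored 792 and lay next to an internal start 13.7 kb into the gene. Col8a1 had 1 and 2 peaks, and Col10a1, a marker of hypertrophic cartilage, had none.

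The next sequences are the 250 bp before the annotated starts of 3 collagen genes, shown for a gene with a peak over its start only after TGFβ (Col8a2), a gene with a shared peak downstream of its start but within 1000 bp of it (Col1a1) and a gene with no peak (Col3a1). The Col8a2 peak covers part of the printed stretch, and no peak covers those of Col1a1 and Col3a1. Capitals mark the GC box, GGGCGG, and the CCAAT box, written CCAAT or ATTGG, each searched on both strands.
Col8a2 (chr4:125963787-125964036, plus strand): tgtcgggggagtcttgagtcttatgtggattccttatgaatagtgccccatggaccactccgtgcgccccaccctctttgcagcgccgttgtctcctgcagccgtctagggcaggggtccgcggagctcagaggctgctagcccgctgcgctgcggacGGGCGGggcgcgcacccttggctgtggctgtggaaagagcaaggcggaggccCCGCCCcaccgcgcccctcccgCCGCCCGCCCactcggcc
Col1a1 (chr11:94797288-94797537, plus strand): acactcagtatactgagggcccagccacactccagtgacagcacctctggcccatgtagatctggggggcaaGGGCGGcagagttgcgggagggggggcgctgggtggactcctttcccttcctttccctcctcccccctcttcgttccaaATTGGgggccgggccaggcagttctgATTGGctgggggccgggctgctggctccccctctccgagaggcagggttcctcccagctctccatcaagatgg
Col3a1 (chr1:45368133-45368382, plus strand): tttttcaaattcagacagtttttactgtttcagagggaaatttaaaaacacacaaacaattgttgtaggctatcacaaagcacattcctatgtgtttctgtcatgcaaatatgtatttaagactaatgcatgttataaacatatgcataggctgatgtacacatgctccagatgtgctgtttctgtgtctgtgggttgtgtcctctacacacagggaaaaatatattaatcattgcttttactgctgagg
The Col8a2 promoter held 4 GC boxes, some of them overlapping, and no CCAAT box, with a GC content of 69.6%. The Col1a1 promoter held 1 GC box and 2 CCAAT boxes at 64.8%, and the Col3a1 promoter held neither at 35.2%. A GC box was found in the same 250 bp of 22 of the 43 collagen genes (51.2%) and of 39.6% of all protein-coding genes, and a CCAAT box in 17 (39.5%) and 35.0%. The 6 collagen genes with a TGFβ 2 h peak within 1000 bp of the gene start (Col1a1, Col4a1, Col4a2, Col6a2, Col8a2 and Col18a1) had GC contents of 59.2% to 74.4% there, with a median of 67.2%. The other 37 genes ran from 35.2% to 76.4%, with a median of 58.4%, so the ranges overlapped. In vehicle the same genes without Col8a2 had a peak there.

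The 9 FACIT collagens had 10 vehicle and 11 TGFβ 2 h peaks, and none had a peak at its own start. Col12a1, which binds the surface of collagen I fibrils, had 1 vehicle and 2 TGFβ 2 h peaks. Its TGFβ 2 h-only peak in intron 16, chr9:79528667-79529034, scored 887, the highest of the 31 such peaks at collagen genes and above 46.6% of its own list. The nearest vehicle peak lay 70.0 kb away. The shared pair of Col12a1, in intron 58, scored 543 in vehicle and 859 after TGFβ and held 2 AP-1 sites in each list. Col16a1 had 5 vehicle and 4 TGFβ 2 h peaks, and its vehicle-only peak in intron 55 (chr4:129764498-129765064) scored 806, the highest of the 6 vehicle-only peaks. Col22a1 had 1 TGFβ 2 h-only peak and no vehicle peak. Col9a2, Col9a3 and Col20a1 had equal numbers, and Col9a1, Col14a1 and Col19a1 had none.

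Both multiplexins, collagens of the basement membrane zone whose ends release antiangiogenic fragments, had several peaks. Col18a1 had 7 vehicle and 6 TGFβ 2 h peaks, all shared, because 2 adjacent vehicle peaks at the start of its neighbour Slc19a1 met 1 TGFβ 2 h peak. The pair at its own start scored 1000 in both lists. Col15a1 had 3 vehicle and 5 TGFβ 2 h peaks, all with their midpoint more than 50 kb from the gene start. Its TGFβ 2 h-only peaks lay in intron 14 (chr4:47291248-47291744, 695) and at an internal start 95.6 kb into the gene (chr4:47316503-47316912, 617). Of its shared pairs, 2 scored 803 and 721 in vehicle and 1000 after TGFβ, and the other scored 1000 in both.

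Of the 4 transmembrane collagens, Col17a1, the collagen of the hemidesmosome in epithelial cells, had no peak in either list, nor had Col13a1 and Col25a1. Col23a1 had 2 vehicle and 4 TGFβ 2 h peaks. A vehicle peak in its intron 5 (chr11:51352691-51353496, 600) overlapped 2 TGFβ 2 h peaks (chr11:51352839-51353077 and chr11:51353161-51353445, 637 and 636), and 1 peak in intron 2 was TGFβ 2 h-only (chr11:51250296-51250566, 641). Col28a1 had 1 shared pair, at the start of Mios. The genes without any peak numbered 14, and 9 of them were 120 kb or longer. Among genes of that length, 10 of 19 collagen genes (52.6%) had a peak in either list, against 76.05% of all protein-coding genes. From 30 to 60 kb the shares were 4 of 7 (57.1%) and 81.4%. The order turned from 60 to 120 kb, with 7 of 8 (87.5%) and 82.3%, and below 30 kb, with 8 of 9 (88.9%) and 63.5%.

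The TGFβ 2 h-only distal peaks lay mostly inside the genes. Of the 28, 23 had their midpoint in a gene body (4.45 per Mb) and 5 in the 20 kb on either side (3.26 per Mb). Gene bodies made up 77.1% of the window bases and held 82.1% of these peaks, against 70.9% and 67.2% over all protein-coding genes. The 6 vehicle-only distal peaks divided into 2 in bodies (33.3%) and 4 in the flanks, against 60.95% in bodies over all protein-coding genes. Every TGFβ 2 h-only peak inside a body was intronic by its midpoint apart from the one at the start of Col8a2, which lay in a non-coding exon.

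No collagen peak of 1 list only reached the score ceiling. Scores of the 31 TGFβ 2 h-only peaks ran from 542 to 887 with a median of 641, and those of the 6 vehicle-only peaks from 565 to 806 with a median of 695. Over the whole lists 7.77% of TGFβ 2 h-only and 4.96% of vehicle-only peaks were at the ceiling. Over the whole lists the medians of such peaks were 669 and 654. Shared peaks at collagens had medians of 1000 after TGFβ and 961 in vehicle, against 1000 in both whole lists. The TGFβ 2 h-only peaks had a median width of 410 bp and the shared ones of that list 686 bp, against 436 and 723 bp over the whole list.

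A one-to-one partner in the other list was found for 47 shared peaks. The TGFβ 2 h peak was the narrower one in 33 of them (70.2%, 56.0 to 81.4), against 71.0% over the whole lists. The TGFβ 2 h score was higher in 20, lower in 7 and equal in 20, all 20 at the ceiling in both lists. Over the whole lists 3299 pairs had the higher score after TGFβ, 3024 the lower and 7655 an equal one. Among the 26 distal pairs it was higher in 18, lower in 4 and equal in 4. Over the whole lists 2222 distal pairs had the higher score after TGFβ, 1541 the lower and 1155 an equal one. The 4 distal collagen pairs with the lower score belonged to Col4a1, Col5a1, Col9a2 and Col16a1.

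**Figure D4:**
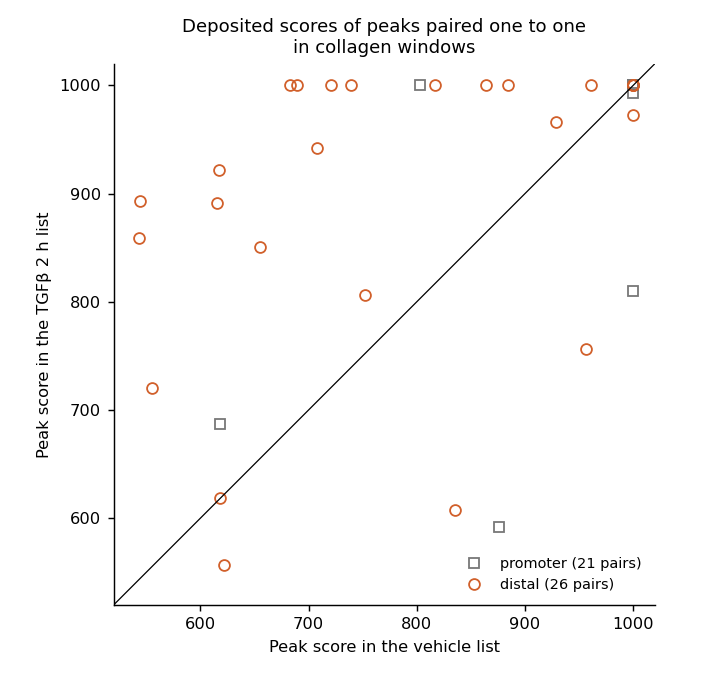
Deposited peak score in the vehicle list (x axis) against that in the TGFβ 2 h list (y axis) for the 47 peaks of collagen windows paired one to one, with circles for distal and squares for promoter pairs. The line marks equal scores, and 20 pairs overlap at the ceiling of 1000 in both lists. Of the 26 distal pairs 18 lie above the line and 4 below it.

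An AP-1 site lay in the central 200 bp of 12 of the 28 distal TGFβ 2 h-only peaks (42.9%, 26.5 to 60.9), against 27.2% of all such peaks in the list, a value just inside the collagen interval. Within 100 bp around the midpoint the collagen share was 7 of 28 (25%), against 14.3% of all such peaks, and with the shortened TGFβ list it was 7 of 11 (63.6%), against 32.1%. These 2 shares are given without an interval, and the second rests on 11 peaks only. Besides the genes printed above, Col8a1 and Col22a1 had a distal TGFβ 2 h-only peak with a site in the central 200 bp. Of the distal TGFβ 2 h peaks that were shared, 7 of 28 held a site (25.0%, 12.7 to 43.4), against 23.5% in the whole list. None of the 6 vehicle-only distal peaks did, and a share up to 39.0% is inside the interval of that count, against 7.69% in the whole list. The SMAD palindrome GTCTAGAC was found in none of the 28 TGFβ 2 h-only peaks and in 0.675% of all such peaks. The other SMAD string searched, the GC element GGCGCC, was found in 1 of the 28 (3.57%, 0.633 to 17.7), against 2.56%. The RUNX core TGTGGT was found in 8 (28.6%), against 22%, and the TEAD core GGAATG in 4 (14.3%), against 14.9%. A match is a string in the DNA and no measurement of binding.

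The enzymes and partners of collagen synthesis were counted in the same way, beside shares over all genes of 45.7% in vehicle and 46.3% after TGFβ for a peak at the own start. Of 20 genes that modify, fold or carry procollagen, 19 were found in the annotation, and 14 of these had a peak at their own start in each list. Their windows held 37 vehicle and 41 TGFβ 2 h peaks, with 7 and 10 of 1 list only, beside 16.0% and 29.5% of peaks over all protein-coding windows. Lepre1 had the most peaks of 1 list only, with 2 vehicle-only and 1 TGFβ 2 h-only. P4ha3, a prolyl hydroxylase subunit, and Leprel2, a prolyl hydroxylase, each had 0 vehicle and 2 TGFβ 2 h peaks. Leprel1 had 2 TGFβ 2 h-only peaks, Sparc had 2 vehicle-only ones and Plod1 had 1 of each kind. Serpinh1, the collagen chaperone, had 2 vehicle-only peaks and none after TGFβ. Of 13 genes for maturation and crosslinking, 6 had a peak at their own start in each list, and the windows held 24 and 25 peaks. Of 10 proteins that associate with fibrils, 2 had such a peak in each list, Fn1 (fibronectin) and Thbs1 (thrombospondin), and the windows held 12 and 13 peaks. Dcn, Lum, Postn and Fbln1 had no peak.

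Markers of cell types were looked up beside these genes. A peak lay in the window of 6 of 8 epithelial, 4 of 5 fibroblast, 3 of 5 blood and endothelial and 2 of 4 muscle and germ line markers. Over all protein-coding genes that share was 69%. At their own start 4 epithelial markers had a peak in vehicle and 3 after TGFβ, beside 45.7% and 46.3% of all genes. The epithelial windows held 18 vehicle and 20 TGFβ 2 h peaks, of which 3 and 5 were of 1 list only. Cdh1, Krt8 and Krt18 had a peak at their own start in both lists, Grhl2 in vehicle only, and Epcam and Cldn3 had no peak at all. Of 5 fibroblast markers, Twist2 had a peak at its own start in both lists. The fibroblast windows held 4 vehicle and 10 TGFβ 2 h peaks, of which 0 and 6 were of 1 list only, with 4 TGFβ 2 h-only peaks at Dpt and 2 at Pdgfra, neither of which had a vehicle peak. None of 5 blood and endothelial markers and none of 4 muscle and germ line markers had a peak at its own start in either list. The windows of the blood and endothelial markers held 6 and 5 peaks (1 and 0 of 1 list only), and those of the muscle and germ line markers 2 and 1 (1 and 0). Over all protein-coding windows 16.0% of vehicle and 29.5% of TGFβ 2 h peaks had no partner. Whether fibroblast-like cells in the culture have a part in the collagen peaks was not tested.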

How the data were processed

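NMuMG cells of 2 samples, grouped by their titles, gave 1 DNaseI-seq peak list per condition. The authors aligned reads to mm9 and called peaks with MACS2 2.1.2 (submitters' processing notes). An irreproducible discovery rate of 0.05 is stated for their ATAC-seq data, and the options for DNaseI-seq are not. The deposited score of each peak is a whole number capped at 1000, which ranks peaks within its list. Scores of paired peaks were also set side by side between the lists, as a description, since nothing states that they share a scale. The other deposited columns used were chromosome, start and end. Repeats of an interval were collapsed to 1 peak, although the vehicle list has more rows per peak (3.96) than the TGFβ list (3.03). The peak files do not give read depth. The reporting summary lists a higher number of mapped reads for vehicle, and no value was scaled by depth. The data listing of the study names merged reads for each condition.

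Peaks were compared by overlap (Python 3.11.15) with gene models of GENCODE M1 and the NCBIM37 sequence, read with samtools 1.23.1. Shares have Wilson and ratios exact binomial 95% intervals (scipy 1.17.1). The scripts were tested on simulated data. All members and gene lists, and the motifs searched, were chosen with earlier results of these data known. Genes described by the rule for naming were 12 fixed ones (Col1a1, Col1a2, Col3a1, Col4a1, Col4a2, Col5a1, Col6a1, Col6a2, Col7a1, Col12a1, Col17a1 and Col18a1), those with a peak of 1 list only at their own start or at the score ceiling, and the 12 genes with the largest difference in peak number, of which the last 3 were taken by symbol among 11 genes tied at a difference of 1. Other genes were added for completeness, after their values were seen. Of the biosynthesis list Mia3 was not matched.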

Additional observations from a re-analysis of the deposited data

How the results depend on the processing

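With 1 list per condition no replicate could be left out, and no paired analysis was possible because each group has 1 sample. Of 84 alternative values, 63 lay inside the 95% interval of the reported value (for counts of genes, within 1.5 times), and 21 moved. The lowest ratio, with the shortened TGFβ list, had an interval from 0.441 to 2.73, which holds 1. Over all protein-coding windows the ratio in that setting was 0.879. Cutting the TGFβ list to 17784 peaks by score moved the ratio of peaks called in 1 list only (TGFβ 2 h over vehicle) to 1.09, a TGFβ 2 h-only share of 21.1%, 8 genes with a TGFβ 2 h-only and 10 with a vehicle-only distal peak, and an AP-1 share of 63.6%. In that setting more genes had a vehicle-only than a TGFβ 2 h-only distal peak, the reverse of the reported 6 and 15, and genes with a peak at their own start numbered 7 in vehicle and 6 after TGFβ, the reverse of the reported 7 and 8. Fewer and higher-scoring TGFβ peaks enter this setting by construction. With peaks at the score ceiling only, both shares of peaks called in 1 list were 0%, no gene (0) had a distal peak of 1 list only, 3 vehicle and 4 TGFβ 2 h own-start genes remained in number, 26 genes had no peak, and the ratio had no value. Gene bodies alone gave a TGFβ 2 h-only share of 49.1%, 2 genes with a vehicle-only distal peak and 25 genes with no peak. Windows of 50 kb gave 23 genes with a TGFβ 2 h-only and 14 with a vehicle-only distal peak. Counting every deposited row gave a TGFβ 2 h-only share of 27.2%. Keeping peaks whose nearest coding start was a collagen's gave a share of 50% and 2 genes with a vehicle-only distal peak. Searching 100 bp around the midpoint gave an AP-1 share of 25%. The cause of these moves was not tested beyond the construction of each setting. Leaving out Col27a1, an alternative chosen after seeing the data, gave a ratio of 4, and leaving out Col4a2, the gene with the most peaks, gave 4.5.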
